A study of Mus musculus with 9 samples.

Results

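Among the genes that were lower in LATS1/2-deleted mammary luminal cells than in control cells, a minority were higher again when Sox9 was deleted as well. These regained genes were chosen from their measured values, on CPM, the counts scaled to the total of each library. A gene was taken when its mean in the CTL libraries was at least 2, its mean in the LATS libraries was at most 0.5 of the CTL mean with every LATS library below every CTL library, and its mean in the LATS-S9 libraries was at least 1.5 times the LATS mean with every LATS-S9 library above every LATS library. Of 55450 genes in the table, 12836 had a CTL mean of at least 2, 2479 of these were lowered in LATS by the first part of the rule, and 114 met the whole rule. Both differences, CTL to LATS and LATS to LATS-S9, were therefore fixed by the choice of the genes and are given below as a description, without a test.

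The libraries came from EYFP+ cells sorted by flow cytometry from mammary gland pairs 3 to 5 of adult nulliparous females, aged 3 to 10 months when experiments began. All mice, controls included, carried K8CreERT2, a tamoxifen-activated Cre recombinase under the promoter of the luminal keratin gene Krt8, and the lsl-EYFP reporter that Cre switches on, and all received 5 daily doses of 2 mg tamoxifen with collection 7 days after the last dose. CTL mice had no floxed gene, LATS mice had floxed Lats1 and Lats2, and LATS-S9 mice had floxed Lats1, Lats2 and Sox9. Each group had 3 libraries with total counts of 44167762 to 61967651, and the sort takes cells in which Cre had acted, meant to be Krt8-expressing cells and their progeny. The sources used here do not say whether each library came from a different mouse, so p-values measure the spread between these libraries, which may in part be technical.

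LATS1 and LATS2 are the kinases at the core of the Hippo pathway, which phosphorylate the coactivators YAP and TAZ and keep them from TEAD transcription factors in the nucleus. In the mammary gland they help to keep luminal cells luminal, and Sox9 is a transcription factor of luminal progenitor cells that is linked to plasticity between luminal and basal states. MHC class I genes, which make up one group among the regained genes, encode the machinery that shows peptides from inside a cell to T cells; NLRC5 is their transcriptional coactivator, and interferons raise the expression of many of them.

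The targeted genes were examined first. Lats1 was at 104, 112 and 108 CPM in the CTL libraries, 41.3, 36.8 and 44.7 in LATS and 35.8, 33.3 and 31.4 in LATS-S9, with no overlap between CTL and either deleted group. Lats2 was at 19.1, 16.3 and 22.2 in CTL, 24.8, 27.4 and 32.9 in LATS and 34.0, 28.6 and 22.8 in LATS-S9, and was not lower in either deleted group. Sox9 itself was at 428, 377 and 392 in CTL, 142, 182 and 238 in LATS and 153, 122 and 119 in LATS-S9. The level of Sox9 was thus already lower in the libraries labelled LATS than in CTL, and the lowest LATS library and the highest LATS-S9 library overlapped (edgeR log2 fold change LATS-S9 against LATS -0.40, standard error 0.19, adjusted p = 0.250 by the quasi-likelihood test with Benjamini-Hochberg adjustment). Whole-gene counts include transcripts outside the deleted exons, so they do not measure the deletion, and the groups are named here by their labels.

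The luminal origin of the cells was checked against defining markers. Krt8 and Krt18 were high in all 9 libraries, with Krt8 at 3172, 3186 and 3929.6 in CTL, 5787, 5070.1 and 5279 in LATS and 8019, 8039 and 7931 in LATS-S9. The rise of these keratins did not hold for the whole list of 5 luminal epithelial markers. Its median log2 fold change was -0.43 in LATS against CTL and -0.24 in LATS-S9 against CTL. Summed markers of T and NK cells were at most 1.03 CPM in any library, with Cd3e and Ncr1 at 0 in all of them, and those of B and plasma cells were at most 1.88. The 3 general leukocyte markers, led by Ptprc, summed to 1.5 to 6.85 in LATS and 1.41 to 4.59 in LATS-S9. Stromal markers were present in small amounts: the fibroblast list summed to 44.95, 82.3 and 174 in CTL, 199.95, 49.6 and 62.4 in LATS and 50.9, 74.03 and 139 in LATS-S9. Dcn made up 29.8, 62.1 and 148 of the CTL sums. It made up 26.1, 5.52 and 22.2 in LATS and 0.484, 2.16 and 5.98 in LATS-S9. The list did not follow Dcn, with a median log2 fold change against CTL of 1.90 in LATS and 2.29 in LATS-S9. The endothelial list, led by Vwf, summed to 111, 95.04 and 108 in CTL, 20.5, 14.9 and 16.5 in LATS and 5.76, 16.5 and 18.4 in LATS-S9. Vwf made up 102, 87.01 and 95.0 of the CTL sums, and at most 5.21 in LATS and 3.33 in LATS-S9. The lower sums were therefore those of Vwf and not of the list as a whole. Its median log2 fold change against CTL was 0.818 in LATS and -0.0067 in LATS-S9. The part of these lists in the results was not tested. In a bulk library, fewer cells of a type and less RNA per cell cannot be told apart.

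The 114 genes were 4.60% of the genes lowered in LATS. Of the 10357 genes that were expressed at the same CTL level but not lowered in LATS, 3.53% met the same 1.5-fold, non-overlapping increase from LATS to LATS-S9, against 3.74% of all 12836 expressed genes. Movement the other way was more frequent: 450 of the lowered genes (18.2%) were lower again in LATS-S9 by the same ratio without overlap, against 7.56% of the genes not lowered in LATS and 9.61% of all expressed genes. The median LATS-S9 to LATS ratio over all lowered genes was 0.858. In the plot of both differences for all lowered genes, the regained genes form a thin upper edge, and 103 of them lie under the line of full return.

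**Figure D1:**
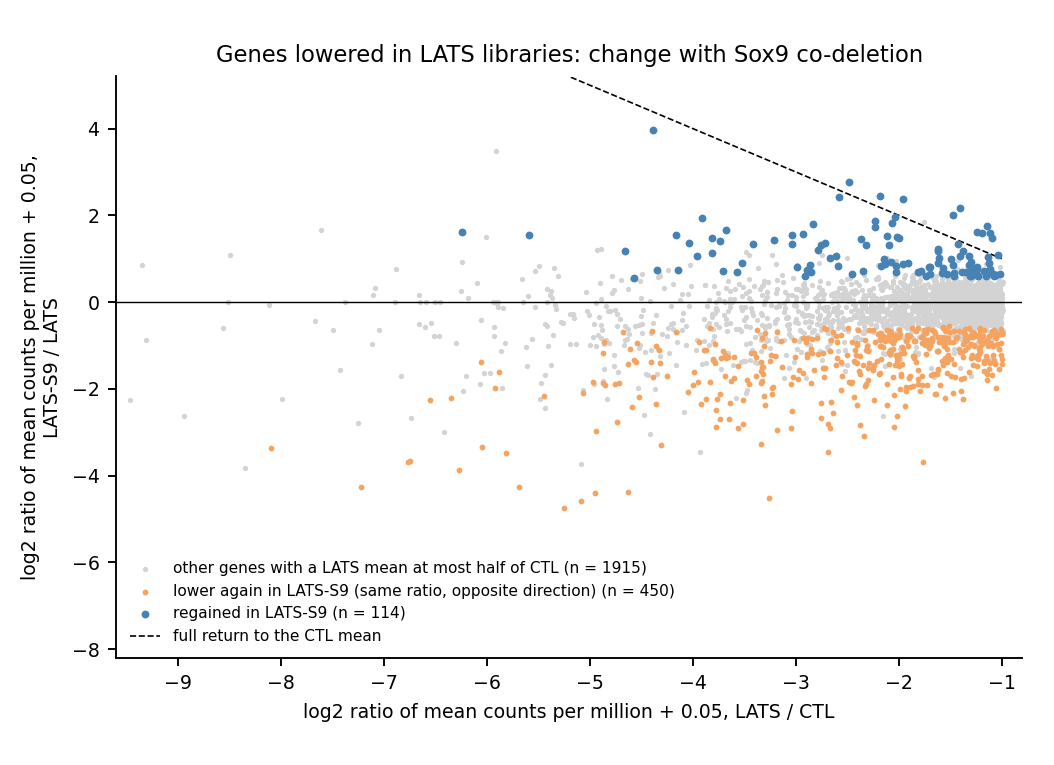
Each point is one of the 2479 genes lowered in LATS, with the log2 ratio of the LATS to the CTL mean on the x axis and of the LATS-S9 to the LATS mean on the y axis (CPM plus 0.05). Blue points are the 114 regained genes, orange points the 450 genes lower again in LATS-S9, grey points the other 1915, and the dashed line marks a LATS-S9 mean equal to the CTL mean; 11 regained genes lie above it.

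The count depended on the scaling and on single libraries. Between LATS and LATS-S9, the median expressed gene differed by -0.10 on the log2 scale with library totals, and the TMM scaling moved LATS-S9 up by 0.11 against LATS. With TMM the same rule gave 172 genes and with DESeq2 size factors 182, each including all 114. LATS replicate 1 was the highest LATS library for 62 of the 114 genes, and without it the rule gave 329 genes, 107 of them among the 114. The GC content of a gene moved with the first difference: the median log2 fold change of LATS against CTL went from 0.40 in genes with at most 44% GC to -0.44 in genes above 56%, and that of LATS-S9 against LATS from -0.06 to 0.02. The regained genes had a median GC content of 54.3%, against 49.8% for all expressed genes. The median was 53.6% for the lowered genes neither regained nor lower again in LATS-S9, and 52.5% for those lower again. After adjustment of the counts for GC content the rule gave 84 genes, 76 of them shared.

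How far each gene returned was measured as the percentage of the gap between the LATS and CTL means that the LATS-S9 mean had closed, 0 being the LATS mean and 100 the CTL mean. The median over the 114 genes was 37.8%, with quartiles at 20.6% and 58.5% and a range from 2.09% to 214%. By level, the median gene stood at 25.6% of its CTL mean in LATS and at 57.9% in LATS-S9. The return was under 25% for 36 genes, from 25% to 50% for 38, from 50% to 75% for 23, from 75% to 100% for 6 and at least 100% for 11. A low return went with a deep loss: in the 19 genes whose LATS mean was under 10% of CTL the median return was 8.15%, and in the 28 genes at 40% or more it was 54.0%, where the 1.5-fold minimum of the rule already sets a high return. On the log2 scale, which treats equal folds alike, the median return was 50.8%.

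**Figure D2:**
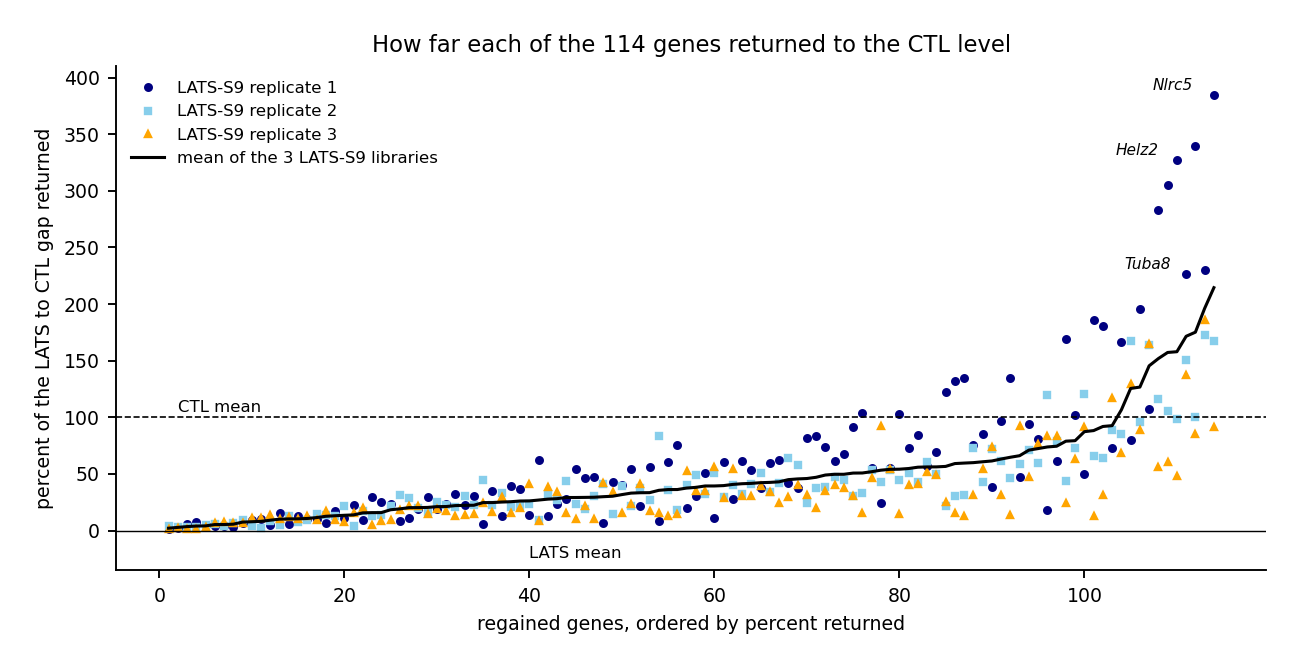
The 114 regained genes are ordered on the x axis by the share of the LATS to CTL gap that the LATS-S9 mean closed, drawn as a black line in percent on the y axis, with each LATS-S9 library as a symbol. The line passes 50% at the last 40 genes and 100% at the last 11, and the symbols of LATS-S9 replicate 1 (dark circles) lie highest for 68 genes.

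LATS-S9 and CTL were then compared directly. This contrast is not one of those in the rule, but its libraries are the ones that chose the genes, so its counts describe the set. A call needed a log2 fold change past 1 in either direction with an edgeR adjusted p no higher than 0.05. All 114 genes passed the filter on low counts, and 45 of them (39.5%) were called lower in LATS-S9 than in CTL, against 19.6% of the 19357 genes tested. None was called higher, against 17.8% of all genes tested; 2 were higher at an unadjusted p under 0.05, and DESeq2 called 47 lower and 0 higher. Of the 1914 other lowered genes tested that were neither regained nor lower again, 1702 (88.9%) were called lower. Every LATS-S9 library lay below every CTL library for 74 of the 114 genes (64.9%), against 41.8% of expressed genes, the groups overlapped for 38, and every LATS-S9 library lay above every CTL library for 2 (Tuba8 and Ggt6), against 34.9% of expressed genes. In the contrasts that chose the genes, all 114 were called lower in LATS than in CTL (17.5% of all genes tested) and 34 higher in LATS-S9 than in LATS (1.55%), and nothing is read from these counts.

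**Figure D3:**
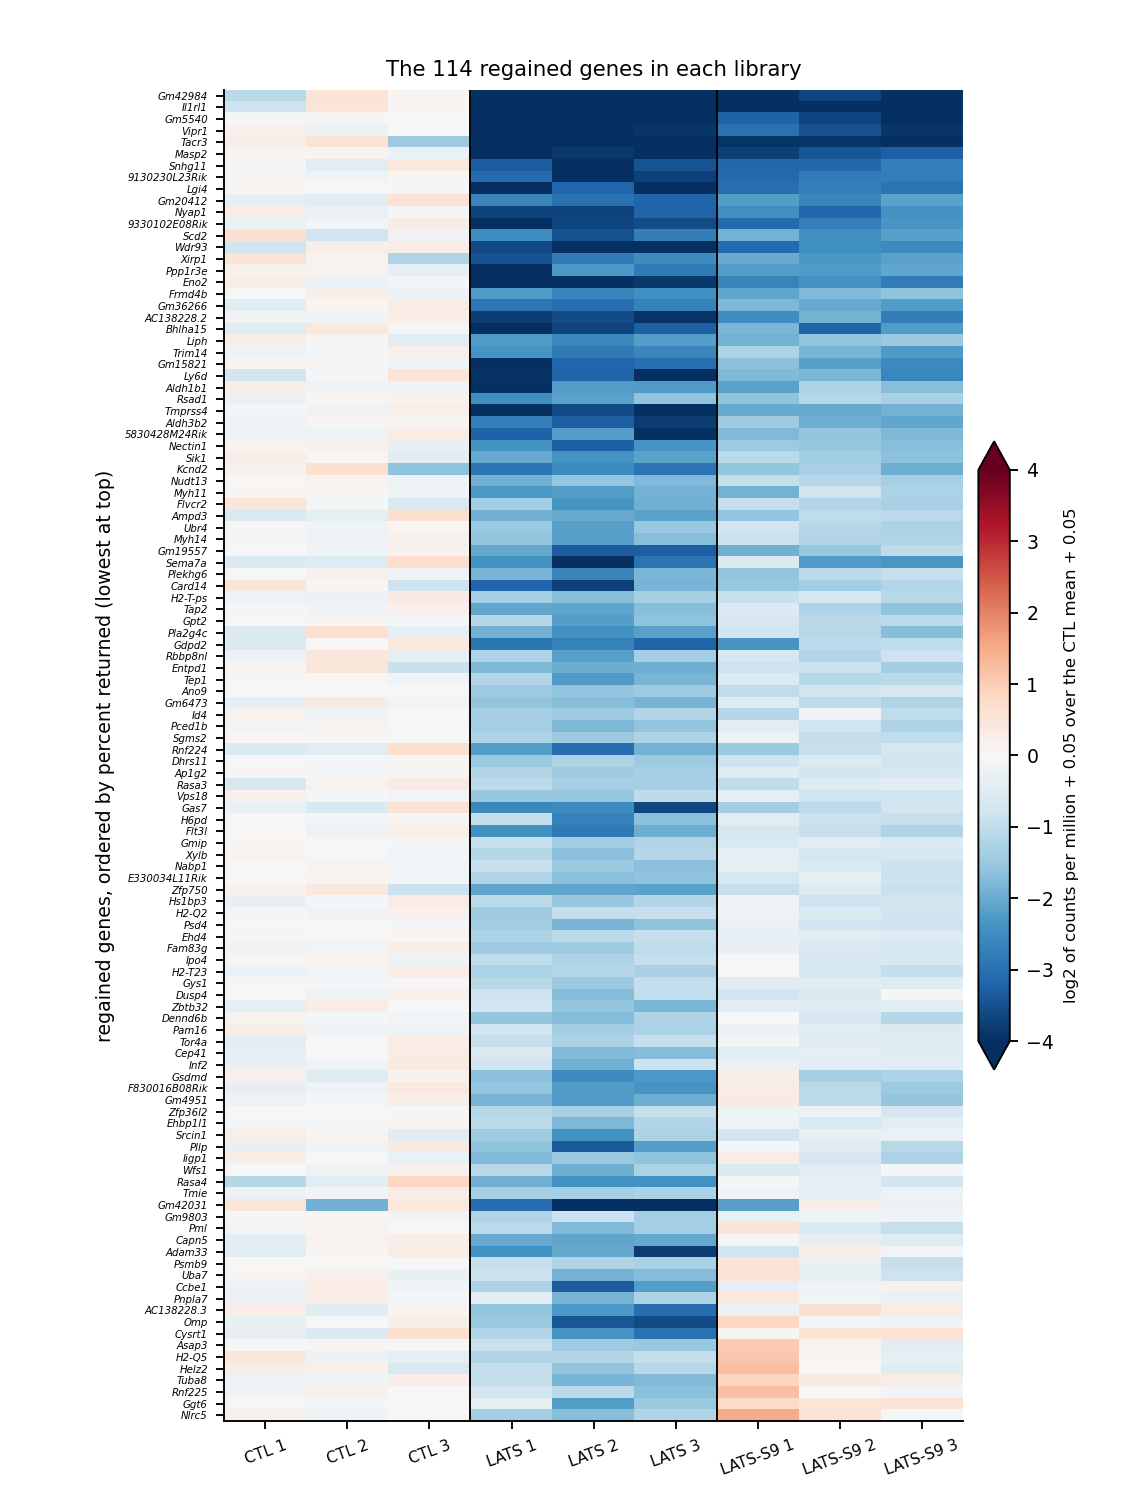
Rows are the 114 regained genes from the lowest return at the top to the highest at the bottom, columns are the 9 libraries, and colour is the log2 ratio of CPM to the gene's CTL mean (0.05 added to both), limited to 4 either way. The LATS columns are blue throughout, the LATS-S9 columns pale from top to bottom, and the red cells at the bottom right are deepest in LATS-S9 replicate 1.

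The regained genes are described below by what their products do. The groups were drawn up after the values were seen, cover 63 of the 114 genes and carry no test, and some of the genes named in them were chosen after their values were seen. The first group was antigen presentation, with 7 genes, a median return of 50.8% and a range from 29.2% to 214%. That median leaned on LATS-S9 replicate 1: by library, it was 104% in replicate 1, 44.2% in replicate 2 and 15.8% in replicate 3.

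Nlrc5, the coactivator of MHC class I genes (ENSMUSG00000074151, GRCm38 chr8:94434356-94527272), had the highest return of the 114 genes with all libraries, 214%; without LATS-S9 replicate 1 it was 129%, below Ggt6, Cysrt1, Tuba8 and a clone-named gene. It was at 37.7, 29.7 and 32.9 CPM in CTL, 12.97, 10.3 and 14.5 in LATS and 92.8, 47.4 and 31.7 in LATS-S9. LATS-S9 replicate 1 stood above every CTL library, replicate 2 likewise, and replicate 3 within the CTL range. Its mean in LATS-S9 was 171% of CTL, a difference that did not pass the test (edgeR log2 fold change 0.83, standard error 0.34, adjusted p = 0.0599). Leaving out LATS-S9 replicate 3 gave a call (edgeR log2 fold change 1.15, standard error 0.28, adjusted p = 0.00736), and leaving out replicate 1 moved it to 0.28 (edgeR adjusted p = 0.298); over all 17 alternatives the adjusted p reached 0.842.

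Psmb9, a catalytic subunit of the immunoproteasome, which cuts proteins into peptides for MHC class I, was at 34.2, 33.9 and 35.2 in CTL, 18.0, 14.9 and 13.97 in LATS and 50.6, 28.0 and 18.1 in LATS-S9. Replicate 1 of LATS-S9 lay above CTL and replicates 2 and 3 below it, and the return of 88.3% was 39.5% without replicate 1. Tap2, one chain of the transporter that carries peptides into the endoplasmic reticulum, was at 342, 322 and 397 in CTL, 83.2, 81.2 and 108 in LATS and 234, 151 and 117 in LATS-S9. All LATS-S9 libraries of Tap2 were below all CTL libraries, and the gene was called lower than CTL (edgeR log2 fold change -1.03, standard error 0.25, adjusted p = 0.00510). Over the 17 alternatives this log2 fold change ran from -1.36 to -0.687, so that some fell short of the fold that a call requires. The exons of Psmb9 share 5.79% of their bases with Tap1. Of the exon bases of Tap2, 18.5% lie in exons of other genes, among them a predicted long non-coding gene that is also regained. That gene had 440 counts against 93896 for Tap2, and 44.05% of its exon bases overlap other genes, so that its own values are the less certain.

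Among the genes of the H2 family, H2-T23, which encodes the non-classical molecule Qa-1, was at 300.4, 331 and 435 in CTL, 146, 161 and 145 in LATS and 363, 219 and 182 in LATS-S9. H2-Q5, annotated as a polymorphic pseudogene, was at 32.9, 20.1 and 18.3 in CTL, 10.4, 10.6 and 12.3 in LATS and 49.8, 24.5 and 18.8 in LATS-S9. H2-Q2 was at 29.2, 27.6 and 34.2 in CTL, 11.3, 15.6 and 16.2 in LATS and 27.8, 20.3 and 17.5 in LATS-S9. In each of the 3 genes LATS-S9 replicate 1 was highest and replicate 3 lowest, and the LATS-S9 and CTL libraries overlapped. A further regained H2 pseudogene, counted among the predicted genes, differed in both respects. It was at 5.66, 5.57 and 8.24 in CTL, 2.47, 1.94 and 2.55 in LATS and 3.47, 4.16 and 2.98 in LATS-S9. Genes of the H2 family are near-identical over long stretches, so that uniquely aligned reads may be lost or shifted between copies, and their levels are uncertain to that extent.

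The wider list of 11 MHC class I genes held 3 regained genes, Nlrc5, Tap2 and Psmb9. Against LATS, 0 of the 11 were called lower in LATS-S9 (2.16% of all genes tested) and 2 higher (1.55%), Nlrc5 and B2m, with a median log2 fold change of 0.92 (all genes tested, -0.02). Against CTL, 3 of the 11 were called higher in LATS-S9 (Psmb8, Erap1 and B2m; 17.8% of all genes tested) and 1 lower (Tap2; 19.6%). B2m, the invariant chain of MHC class I, was not lowered in LATS: it was at 995, 867 and 932 in CTL, 1235, 1296 and 1248 in LATS and 3250.2, 2502 and 1993 in LATS-S9. H2-K1, the most abundant of the list in CTL and LATS but below B2m in LATS-S9, was at 2191, 1909 and 2055 in CTL, 1348, 1307 and 1372 in LATS and 2749, 1903 and 1623 in LATS-S9, so that its LATS mean stayed above the limit of the rule.

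The second group held 8 genes that are inducible by interferon or act in innate immunity, with a median return of 62.2%. That value leaned on LATS-S9 replicate 1: by library, the median return was 135% in replicate 1, 37.5% in replicate 2 and 19.6% in replicate 3. Helz2, a helicase and coactivator, was at 115, 110.0 and 62.6 in CTL, 49.9, 32.4 and 43.6 in LATS and 219, 95.2 and 68.0 in LATS-S9. Iigp1, an interferon-inducible GTPase, was at 94.8, 80.5 and 67.2 in CTL, 23.8, 28.8 and 26.2 in LATS and 99.5, 51.4 and 33.8 in LATS-S9. Uba7, the activating enzyme for ISG15, was at 36.5, 39.0 and 27.7 in CTL, 18.9, 9.20 and 10.3 in LATS and 51.7, 26.6 and 19.5 in LATS-S9. In all 3 genes LATS-S9 replicate 1 lay above every CTL library, replicate 2 lower and replicate 3 lowest. Pml, the organizer of nuclear bodies, followed the same order at 55.2, 25.5 and 20.7 in LATS-S9, against 35.7, 42.2 and 38.5 in CTL and 18.5, 11.4 and 15.0 in LATS. Trim14 returned least in the group (15.8%, and 9.0% without LATS-S9 replicate 1), and 38.0% of its exon bases lie in exons of Nans, which has more counts.

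Across the 15 genes of both groups, LATS-S9 replicate 1 was highest and replicate 3 lowest in 13, and replicate 1 was at least 1.5 times both others in 12, against 41 and 7 of the other 99 regained genes. Their median return was 134% in replicate 1, 44.1% in replicate 2 and 15.8% in replicate 3, against 37.2%, 32.4% and 29.3% for the other 99. Leaving out replicate 1 took 21 of the 114 genes below the ratio of 1.5, among them Psmb9, Tap2, H2-T23, H2-Q2 and Trim14, and lowered the median return to 30.2%; leaving out replicate 2 or replicate 3 took 5 genes each. Replicate 1 was also the highest LATS-S9 library for 56.3% of the lowered genes that were not regained.

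A list of 19 interferon-stimulated genes held 0 regained genes, but its summed level moved with them across the LATS-S9 libraries. The sum was 501, 537 and 512 CPM in CTL, 1709, 1891 and 1668 in LATS and 9157, 4732 and 3172 in LATS-S9. These genes did not share the loss in LATS: 16 of 19 were called higher in LATS than in CTL (17.1% of all genes tested), 12 higher in LATS-S9 than in LATS (1.55%), and 17 higher in LATS-S9 than in CTL (17.8%). Rsad2, an antiviral enzyme and the most abundant of them in LATS-S9, was at 13.1, 16.8 and 14.1 in CTL, 144, 263 and 204 in LATS and 2079.9, 927 and 527 in LATS-S9. The part of this order in the return of the 15 genes was not tested.

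Other list sums differed between the LATS-S9 libraries as well. The basal and myoepithelial list, dominated by Krt14, had the opposite order of LATS-S9 libraries, at 2905, 5546 and 7742 CPM in replicates 1, 2 and 3, after 126, 147 and 123 in CTL and 6141, 4097 and 3957 in LATS. The macrophage list summed to 20.9, 14.7 and 14.4 in CTL, 103, 66.4 and 43.4 in LATS and 68.6, 72.0 and 103 in LATS-S9. Its most abundant gene was Csf1r, and Adgre1, which encodes F4/80, was at most 1.62. The luminal epithelial list, led by Krt18, summed to 14389, 14704 and 15756 in CTL, 18157, 16789 and 17159 in LATS and 26508, 25335 and 24201 in LATS-S9. Against CTL, 1 of its 5 genes was called lower in LATS-S9 (19.6% of all genes tested) and 2 higher (17.8%). The immediate early and dissociation list, with 0 regained genes, summed to 22290.0, 20160.0 and 25118 in CTL, 8128, 8032 and 7726 in LATS and 10534, 7425 and 6773 in LATS-S9, with replicate 1 highest as in the immune genes. The adipocyte list, led by Fabp4, summed to 5.17, 3.51 and 5.41 in CTL, 9.68, 129 and 67.6 in LATS and 1.52, 38.3 and 26.9 in LATS-S9. Their part in the results was not tested.

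**Figure D4:**
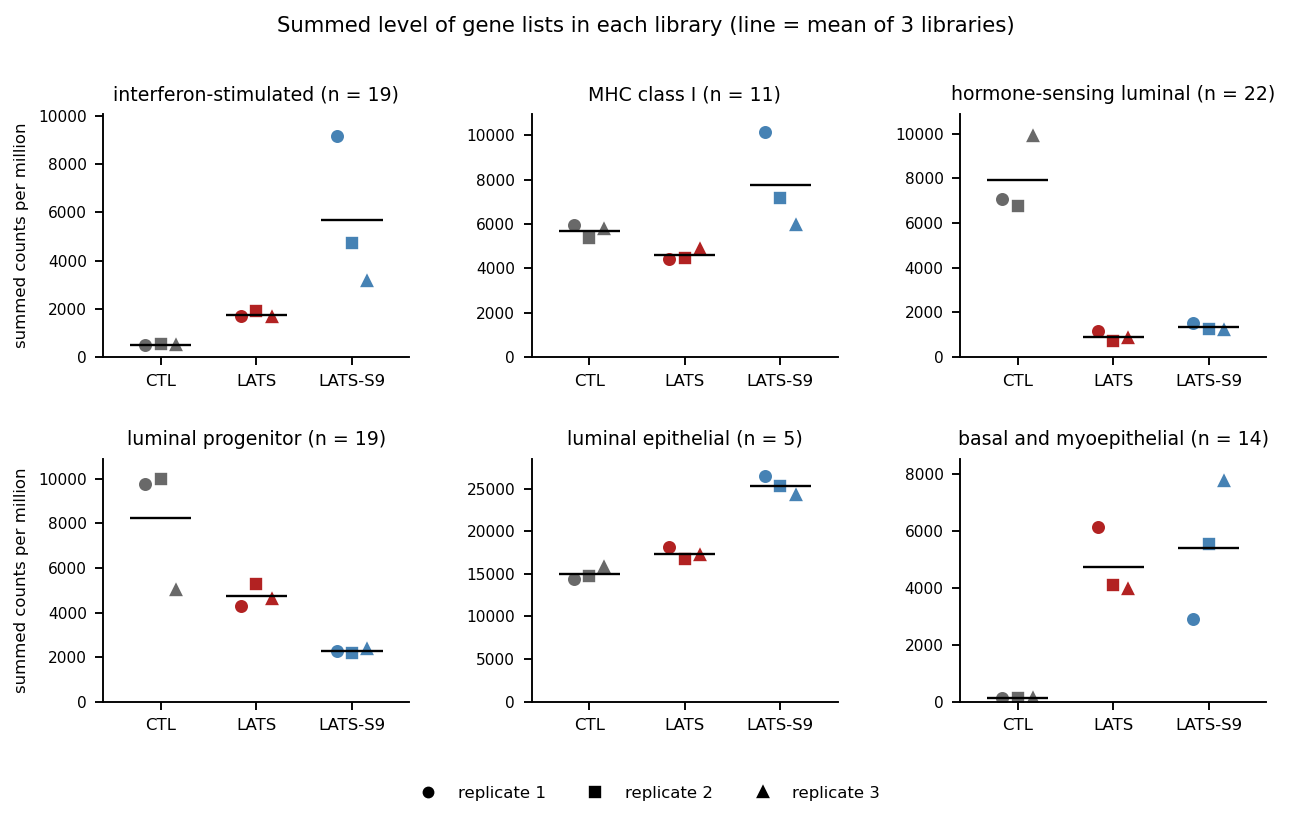
Summed CPM of 6 gene lists (y axis, from 0) in each library of CTL, LATS and LATS-S9, with symbols for the replicate number and a line at the mean of 3 libraries. The interferon-stimulated sum is 9157 in LATS-S9 replicate 1 and 3172 in replicate 3 while the basal sum is 2905 and 7742. The hormone-sensing and progenitor sums are below those of CTL in every LATS-S9 library. Against LATS, the progenitor sum is lower and the hormone-sensing sum higher, at 1541, 1265 and 1192 in LATS-S9 and 1158, 721 and 836 in LATS. Ly6a makes up 997, 800 and 640 of the LATS-S9 values.

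The lists of luminal genes held none of the regained genes, which were 4.60% of all lowered genes, so that lists with this few lowered genes would hold few or none at that share. Of 22 genes of hormone-sensing luminal cells, 18 were lowered in LATS, 0 were regained and 4 were lower again in LATS-S9 (18.2% of all lowered genes). Of 19 luminal progenitor genes, 7 were lowered, 0 were regained and 4 were lower again, and of 21 luminal and epithelial transcription factors 11 were lowered and 0 regained. Lists of 15 milk and secretory genes, 13 steroid-response genes and 14 genes of prolactin, LIF and STAT signalling likewise held 0 regained genes, with 6, 8 and 11 lowered. Esr1, the oestrogen receptor, was at 156, 151 and 230.3 in CTL, 26.0, 11.2 and 13.1 in LATS and 16.4, 11.9 and 12.7 in LATS-S9. Pgr, the progesterone receptor, was at 314, 394 and 546 in CTL, 12.99, 2.32 and 6.85 in LATS and 0.758, 0.288 and 0.821 in LATS-S9. Both were named after their values were seen, as was Ly6a, of the hormone-sensing list, which moved the other way. Ly6a was at 121, 211 and 311 in CTL, 152, 278 and 139 in LATS and 997, 800 and 640 in LATS-S9. It was not lowered in LATS by the rule. Against LATS, 1 gene of that list was called higher in LATS-S9 (1.55% of all genes tested) and 2 lower (2.16%). The higher one was Ly6a (edgeR log2 fold change 2.21, adjusted p = 0.0129). Besides the MHC class I genes, the regained genes in the lists were Myh11 (basal and myoepithelial) and Scd2 (lipid and cholesterol synthesis).

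Genes for motors and the cytoskeleton made another group of 6, with a median return of 33.4%, of which 4 were called lower than CTL (39.5% of the 114 genes and 19.6% of all genes tested). Tuba8, an alpha-tubulin, was at 30.4, 29.6 and 39.8 in CTL, 17.1, 9.17 and 9.66 in LATS and 60.2, 44.02 and 41.3 in LATS-S9, so that every LATS-S9 library exceeded every CTL library; the difference from CTL did not pass the test (edgeR log2 fold change 0.59, standard error 0.25, adjusted p = 0.0706). Myh14, a non-muscle myosin heavy chain of epithelia and one of the most abundant regained genes, was at 806, 753 and 935 in CTL, 280.5, 185 and 257 in LATS and 455, 369 and 360.2 in LATS-S9. It returned by 26.1% and was called lower than CTL (edgeR log2 fold change -1.03, standard error 0.17, adjusted p = 0.000622). Over the 17 alternatives the log2 fold change of Myh14 ran from -1.15 to -0.557, so that some fell short of the fold that a call requires. Myh11, the smooth muscle myosin that marks myoepithelial cells, was low throughout, at 12.7, 12.3 and 10.8 in CTL, 2.38, 2.48 and 3.19 in LATS and 3.20, 6.81 and 4.89 in LATS-S9, and was also called lower than CTL (edgeR log2 fold change -1.23, standard error 0.26, adjusted p = 0.00263). LATS-S9 replicate 1 of Myh11 was barely above the highest LATS library. Its course was not that of the 14 basal and myoepithelial genes, of which 3 were called lower (17.5% of all genes tested) and 9 higher (17.1%) in LATS than in CTL. Against LATS, 3 were called lower in LATS-S9 (Acta2, Cnn1 and Oxtr; 2.16%) and 1 higher (Krt17; 1.55%). Gas7, an actin-binding protein, was at 11.6, 9.14 and 20.7 in CTL, 2.30, 2.35 and 1.06 in LATS and 5.24, 6.70 and 8.34 in LATS-S9, with a return of 40.7%, and was called lower than CTL as well (edgeR log2 fold change -1.003, standard error 0.37, adjusted p = 0.0390).

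Membrane traffic was represented by 6 genes with a median return of 49.4%; 0 of the 6 were called lower than CTL, against 39.5% of the 114 genes and 19.6% of all genes tested. Asap3, a GTPase-activating protein for Arf, was at 34.9, 36.02 and 32.9 in CTL, 18.6, 13.01 and 12.1 in LATS and 71.3, 37.9 and 25.7 in LATS-S9, and its return was 152% with all libraries and 86.2% without replicate 1. Ehd4, which reshapes endosomal membranes, was at 313, 330.3 and 347 in CTL, 136, 157 and 175 in LATS and 263, 239 and 225 in LATS-S9, with the LATS-S9 libraries close together between the other groups. Ehd4 differed from CTL by less than the fold that a call requires (edgeR log2 fold change -0.40, standard error 0.13, adjusted p = 0.0211).

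The motif of the interferon response element was looked for in the promoters of the regained genes, 250 bases before to 50 after each start site (RefSeq, GRCm38.p6), because genes of that response made up one group. RefSeq windows were available for 70 of the 114 genes, 90 windows in all. GAAA, any 2 bases and GAAA again occurred on either strand in 5.56% of these windows, against 2.69% for the other lowered genes and 3.44% of 32851 promoters; this motif was added after the data were seen. Of the 15 genes in the antigen presentation and interferon groups 7 had a window, and 1 of these, H2-T23, held the letters. They are in capitals in the 30 bases of H2-T23 at chr17:36032806-36032835 (minus strand, inside an annotated exon) and, in capitals likewise, in the 250 bases before the start sites of Flt3l (chr7:45136433-45136682, minus strand) and Psd4 (chr2:24385082-24385331, plus strand), all written in the direction of the gene. A match describes the letters in the window and is not a site of binding.
H2-T23: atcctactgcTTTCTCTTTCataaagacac
Flt3l: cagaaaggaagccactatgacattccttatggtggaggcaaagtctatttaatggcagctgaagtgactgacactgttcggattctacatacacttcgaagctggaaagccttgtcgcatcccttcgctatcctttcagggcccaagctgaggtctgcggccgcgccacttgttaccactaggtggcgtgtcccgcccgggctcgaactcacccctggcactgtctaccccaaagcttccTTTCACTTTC
Psd4: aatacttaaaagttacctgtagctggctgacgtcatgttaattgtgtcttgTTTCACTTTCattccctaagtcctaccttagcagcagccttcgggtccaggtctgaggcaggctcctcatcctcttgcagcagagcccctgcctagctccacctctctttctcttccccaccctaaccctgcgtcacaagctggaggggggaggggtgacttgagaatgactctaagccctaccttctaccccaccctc

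Flt3l, the ligand of the receptor FLT3 on dendritic cell progenitors, was at 8.21, 6.999 and 9.78 in CTL, 1.505, 1.13 and 2.09 in LATS and 5.21, 4.34 and 3.62 in LATS-S9. Psd4, an exchange factor for ARF6, was at 26.7, 26.8 and 25.4 in CTL, 9.94, 7.19 and 8.58 in LATS and 21.7, 15.3 and 14.7 in LATS-S9. Both were named for their promoters, after the values were seen, and neither had LATS-S9 replicate 1 at 1.5 times the other libraries.

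The TEAD core GGAATG, which YAP and TAZ use through TEAD factors, occurred on either strand in 22.2% of the 90 windows, against 13.3% of the windows of other lowered genes and 14.7% of all promoters. The SOX core ACAAAG occurred in 10% of the windows, against 12.6% and 18.7%. No test was made of these shares, and windows of one gene can overlap. Inf2, a formin that acts on actin filaments (chr12:112588534-112588783, plus strand), had 3 TEAD cores in its 250 bases before the start, and Ggt6, a gamma-glutamyltransferase family member (chr11:72435276-72435525, plus strand), had 1, both in capitals.
Inf2: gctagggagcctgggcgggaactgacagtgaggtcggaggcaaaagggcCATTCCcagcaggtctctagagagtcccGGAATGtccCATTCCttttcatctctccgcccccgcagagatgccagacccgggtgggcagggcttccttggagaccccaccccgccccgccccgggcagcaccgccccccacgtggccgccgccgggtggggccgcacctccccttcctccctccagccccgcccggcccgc
Ggt6: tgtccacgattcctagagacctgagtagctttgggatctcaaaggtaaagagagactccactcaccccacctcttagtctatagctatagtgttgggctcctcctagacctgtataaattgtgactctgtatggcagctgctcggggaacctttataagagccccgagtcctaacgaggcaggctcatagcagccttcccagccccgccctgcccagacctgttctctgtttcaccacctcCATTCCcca

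Inf2 was at 68.7, 76.5 and 109 CPM in CTL, 49.1, 22.2 and 46.2 in LATS and 70.8, 61.9 and 61.7 in LATS-S9. Ggt6 was at 3.23, 3.10 and 3.21 in CTL, 2.49, 0.648 and 1.099 in LATS and 5.49, 4.47 and 4.71 in LATS-S9, with every LATS-S9 library above every CTL library at a low level of expression. The list of 22 YAP and TAZ target genes held 0 regained genes. Of these 22, 14 were called higher (17.1% of all genes tested) and 5 lower (17.5%) in LATS than in CTL, and 0 were called higher (1.55%) or lower (2.16%) in LATS-S9 against LATS (median log2 fold change 0.09).

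The 14 genes of lipid, sugar and amino acid metabolism had a median return of 29.4%, from 10.1% to 196%, and 7 were called lower than CTL (39.5% of the 114 genes and 19.6% of all genes tested). Scd2, a stearoyl-CoA desaturase that makes monounsaturated fatty acids, was at 870.0, 325 and 514 in CTL, 103, 51.1 and 83.0 in LATS and 155, 103 and 127 in LATS-S9. It returned by 10.1% and stayed at 22.5% of its CTL mean (edgeR log2 fold change -2.11, standard error 0.37, adjusted p = 0.000706). Sgms2, a sphingomyelin synthase, was at 383, 344 and 369 in CTL, 156, 134 and 155 in LATS and 312, 188 and 179.8 in LATS-S9, with LATS-S9 replicate 1 close to the CTL libraries and the other replicates close to LATS. Eno2, the neuronal form of enolase, was at 21.7, 15.5 and 17.1 in CTL, 0.693, 0.988 and 1.20 in LATS and 2.78, 3.42 and 2.58 in LATS-S9, so that a LATS-S9 to LATS ratio of 3.04 brought it to 16.1% of CTL (edgeR log2 fold change -2.59, standard error 0.25, adjusted p = 1.82e-05).

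Other metabolic genes returned to different extents. Gys1, the glycogen synthase of tissues other than liver, was at 45.3, 40.7 and 42.04 in CTL, 19.6, 15.1 and 22.1 in LATS and 32.1, 31.7 and 29.9 in LATS-S9. H6pd, which makes NADPH in the endoplasmic reticulum, was at 71.1, 67.8 and 73.2 in CTL, 36.2, 10.7 and 22.0 in LATS and 52.1, 38.5 and 37.5 in LATS-S9. Pnpla7, a lysophospholipase, was at 27.6, 39.0 and 31.0 in CTL, 24.5, 8.99 and 13.9 in LATS and 43.7, 30.1 and 27.2 in LATS-S9, a return of 107%. In Pnpla7 the LATS-S9 libraries overlapped CTL, while in Gys1 and H6pd they did not. Ampd3, an AMP deaminase, was at 65.6, 79.1 and 158 in CTL, 26.8, 24.8 and 22.8 in LATS and 34.5, 50.03 and 47.3 in LATS-S9, and was called lower than CTL (edgeR log2 fold change -1.17, standard error 0.29, adjusted p = 0.00636).

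Receptors, ligands and other surface or secreted proteins had the lowest median return of the groups as a share of the gap, 20.3% over 13 genes. Their loss was deep, with a median LATS level of 7.80% of CTL against 25.6% over all 114 genes, and a low return went with a deep loss. Of the 13 genes, 8 were called lower than CTL, against the same 39.5% and 19.6%. Il1rl1, the receptor for interleukin-33, was at 91.7, 225 and 168 in CTL, 4.99, 0.486 and 0.785 in LATS and 5.99, 7.73 and 5.91 in LATS-S9. All LATS-S9 libraries exceeded all LATS libraries, LATS replicate 1 by little, while the gene stayed at 4.05% of CTL (edgeR log2 fold change -4.58, standard error 0.72, adjusted p = 0.000393).

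Vipr1, a receptor for vasoactive intestinal peptide, was at 111, 83.7 and 99.8 in CTL, 6.12, 3.89 and 6.58 in LATS and 12.3, 8.68 and 6.58 in LATS-S9, with LATS-S9 replicate 3 barely above the highest LATS library, and was called lower than CTL (edgeR log2 fold change -3.37, standard error 0.28, adjusted p = 7.60e-06). Ly6d, a surface protein found on luminal cells of the mammary gland, was at 321, 527 and 789 in CTL, 35.1, 59.9 and 32.7 in LATS and 162, 153 and 90.1 in LATS-S9. It returned by 18.4% (edgeR log2 fold change -1.97, standard error 0.37, adjusted p = 0.00119). Tmprss4, a membrane serine protease, was at 24.96, 24.1 and 30.4 in CTL, 1.505, 2.19 and 1.45 in LATS and 6.49, 6.56 and 7.15 in LATS-S9, with tight LATS-S9 libraries at 25.4% of the CTL mean (edgeR log2 fold change -1.94, standard error 0.20, adjusted p = 2.39e-05). Ccbe1, a secreted protein needed for the growth of lymphatic vessels, was at 24.9, 36.05 and 27.3 in CTL, 12.2, 2.90 and 6.30 in LATS and 23.3, 26.8 and 33.2 in LATS-S9, a return of 92.7% (edgeR log2 fold change -0.04, standard error 0.39, adjusted p = 0.933) and, with Adam33 at 87.3%, one of 2 genes of the group that returned by 50% or more. Its LATS-S9 libraries overlapped CTL, and replicate 3, not replicate 1, was highest.

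The other surface and secreted proteins were mostly of low abundance. Tacr3, the neurokinin B receptor, was at 3.43, 4.26 and 1.02 in CTL, 0, 0.0162 and 0.0174 in LATS and 0.145, 0.144 and 0.101 in LATS-S9, so that its return of 4.11% rests on few reads. Entpd1, the ectonucleotidase CD39, was at 38.6, 49.7 and 19.3 in CTL, 10.2, 9.07 and 9.19 in LATS and 20.03, 19.9 and 13.6 in LATS-S9. Nectin1, a cell adhesion molecule of adherens junctions, was at 93.5, 97.7 and 70.8 in CTL, 16.7, 9.10 and 17.04 in LATS and 31.6, 30.8 and 26.9 in LATS-S9. LATS-S9 replicates 1 and 2 of Entpd1 reached the lowest CTL library, while those of Nectin1 stayed below CTL and the gene was called lower (edgeR log2 fold change -1.51, standard error 0.23, adjusted p = 0.000292).

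Regulators of signalling, transcription and RNA made the last group of 9, with a median return of 45.6%, of which 2 were called lower than CTL, against 39.5% of the 114 genes and 19.6% of all genes tested. Sik1, a salt-inducible kinase that holds back CREB coactivators, was the most abundant of all 114 genes (ENSMUSG00000024042, GRCm38 chr17:31844250-31855804). It was at 1477, 1306 and 903 in CTL, 301, 235 and 279 in LATS and 582, 468 and 397 in LATS-S9. All 3 groups were separate, and the return of 22.0% left Sik1 at 39.3% of CTL (edgeR log2 fold change -1.30, standard error 0.20, adjusted p = 0.000386). Zfp36l2, which promotes decay of AU-rich mRNA, was at 283, 288 and 289 in CTL, 131, 117 and 149.8 in LATS and 248, 245 and 181 in LATS-S9, a return of 59.98% with no call against CTL (edgeR log2 fold change -0.30, standard error 0.15, adjusted p = 0.106).

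Dusp4, a phosphatase of MAP kinases, was at 203, 178 and 232 in CTL, 116, 60.7 and 104 in LATS and 121, 141 and 196 in LATS-S9, a return of 53.3% (edgeR log2 fold change -0.39, standard error 0.24, adjusted p = 0.187). Without LATS-S9 replicate 3 its return was 33.6% and its ratio to LATS 1.40, below the rule. Zfp750, a transcription factor of epidermal differentiation, was at 62.04, 72.5 and 30.1 in CTL, 13.03, 13.1 and 12.3 in LATS and 28.8, 37.3 and 29.9 in LATS-S9. Bhlha15, also called MIST1, a transcription factor of secretory cells, had the lowest return of the group (13.8%), at 1.49, 2.804 and 1.97 in CTL, 0.0198, 0.113 and 0.174 in LATS and 0.549, 0.180 and 0.402 in LATS-S9. Its LATS-S9 libraries lay above LATS at a level of less than 1 CPM.

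Genes in none of the groups included some of the fullest returns. Capn5, a calpain protease (GRCm38 chr7:98121559-98178274), was at 135, 199 and 209 in CTL, 44.4, 41.5 and 43.8 in LATS and 183, 143 and 131 in LATS-S9. Its LATS libraries were nearly equal, its LATS-S9 and CTL libraries overlapped, and it returned by 79.4% (edgeR log2 fold change -0.20, standard error 0.18, adjusted p = 0.378). Omp, the olfactory marker protein gene, lies within the span of Capn5 without sharing exon bases and had a return of 127%, at 5.30, 6.64 and 7.63 in CTL, 2.30, 0.567 and 0.506 in LATS and 11.7, 6.31 and 5.90 in LATS-S9; it was named for its position, after its values were seen.

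Cysrt1, a cysteine-rich protein of epithelia, was at 13.6, 11.5 and 25.7 in CTL, 7.56, 3.29 and 2.09 in LATS and 17.9, 25.01 and 25.1 in LATS-S9, and 11.96% of its exon bases lie in exons of Rnf208. Rnf225, a RING finger gene, was at 9.49, 12.2 and 10.6 in CTL, 6.43, 5.07 and 3.37 in LATS and 24.7, 10.8 and 9.90 in LATS-S9, with LATS-S9 replicate 1 above CTL and replicates 2 and 3 within the CTL range. Ubr4, a large ubiquitin ligase of the N-degron pathway, was at 615, 543 and 622 in CTL, 212, 131 and 208 in LATS and 346, 269 and 248 in LATS-S9. Its 3 groups were separate, and it returned by 25.5% (edgeR log2 fold change -0.998, standard error 0.20, adjusted p = 0.00175). Snhg11, a small nucleolar RNA host gene, was at 164, 125 and 227 in CTL, 17.01, 6.59 and 15.8 in LATS and 19.4, 19.7 and 25.6 in LATS-S9, with a return of 5.31% and LATS-S9 replicates 1 and 2 just above the highest LATS library (edgeR log2 fold change -2.96, standard error 0.35, adjusted p = 5.94e-05).

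**Figure D5:**
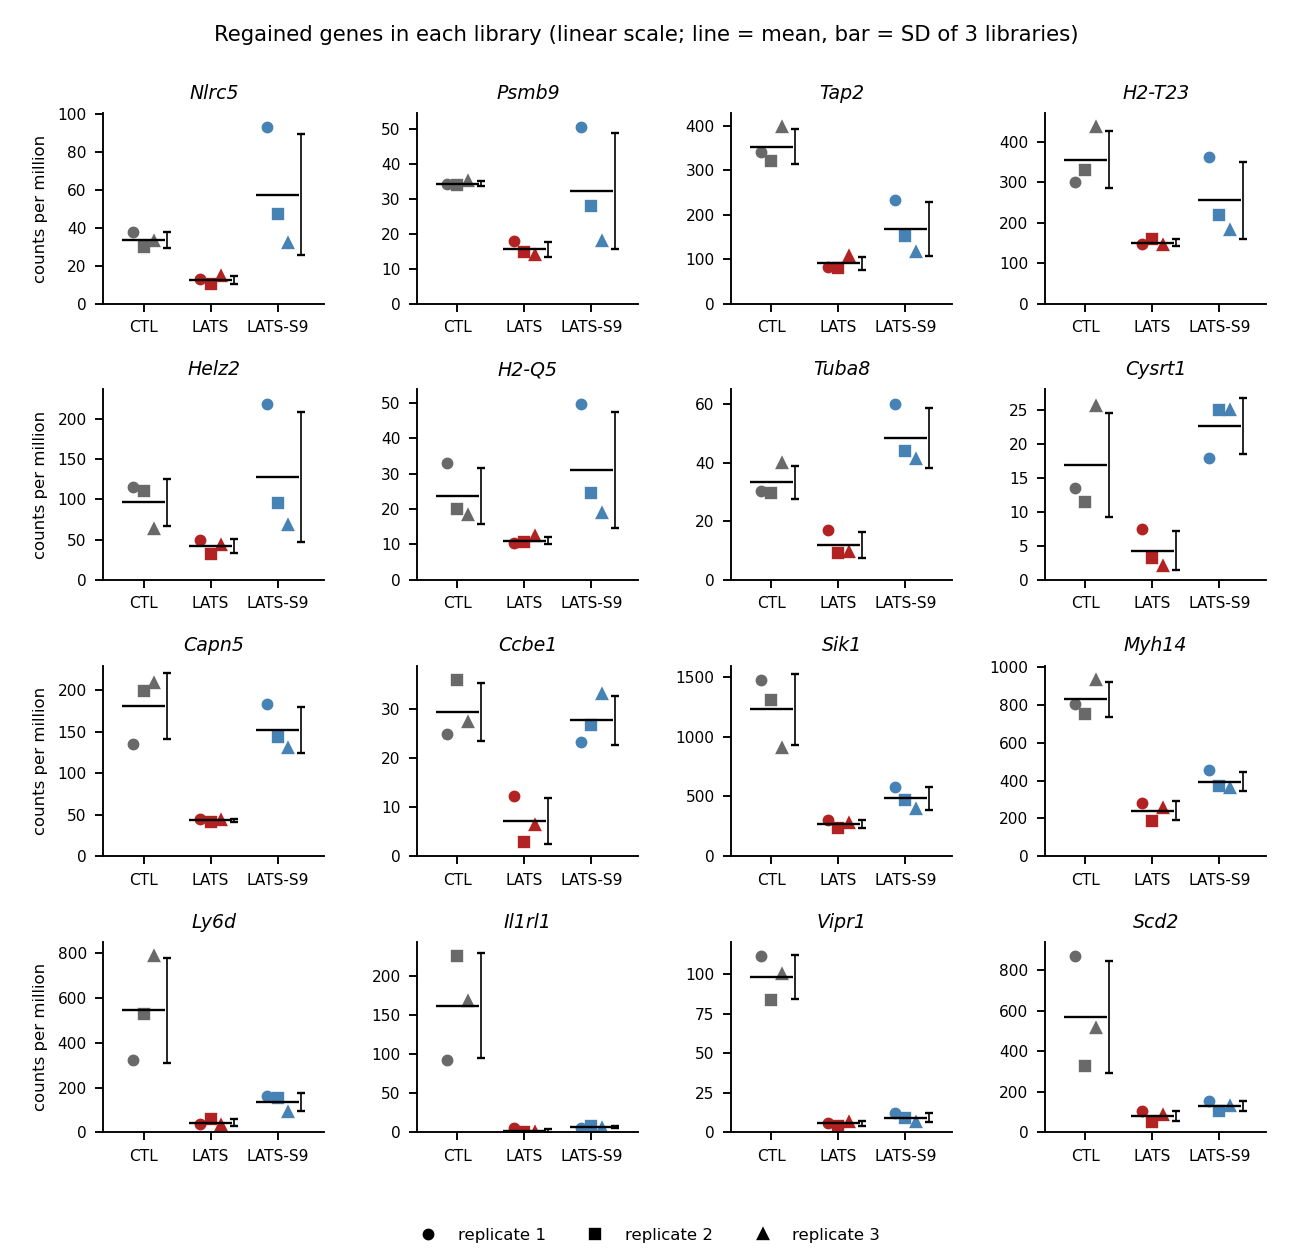
CPM (y axis, from 0) of 16 regained genes in the 3 libraries of CTL, LATS and LATS-S9, with symbols for the replicate number, a line at the mean and a bar of 1 SD. The antigen presentation and interferon genes, from Nlrc5 to H2-Q5, spread widely in LATS-S9 with replicate 1 on top, Capn5, Ccbe1 and Cysrt1 lie near CTL, and Il1rl1, Vipr1 and Scd2 stay near LATS.

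The threshold of 1.5 fell within a dense range of ratios. Just inside it were Nudt13 at 1.525, H2-Q2 at 1.524 and Gmip at 1.518, and just outside were Scly at 1.499, Hist1h1d at 1.492 and Tcirg1 at 1.490. The median ratio of the 114 genes was 1.89, and 54 genes had a ratio of at least 2. Nudt13, a nudix hydrolase, was at 27.3, 30.01 and 23.5 in CTL, 7.15, 9.15 and 7.83 in LATS and 13.8, 12.3 and 10.7 in LATS-S9. Gmip, which interacts with the GTPase GEM, was at 22.7, 21.5 and 20.2 in CTL, 11.4, 8.24 and 9.28 in LATS and 14.1, 15.6 and 14.3 in LATS-S9. Scly, a selenocysteine lyase left out by the threshold, was at 62.3, 51.0 and 55.8 in CTL, 26.9, 15.4 and 16.2 in LATS and 33.1, 27.4 and 27.1 in LATS-S9.

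By annotation (GENCODE M21), 99 of the 114 genes were protein-coding and 18 carried predicted or clone names. Their median CTL level was 20.2 CPM, with 45 genes under 10 and 16 at 100 or more. Exons of 43 genes (37.7%) overlapped those of another gene. This share was 36.0% for the lowered genes neither regained nor lower again in LATS-S9, and 30.7% for those lower again. For 16 of the 43 genes the partner had more counts, so that their values are uncertain. Masp2 shares 54.9% of its exon bases with Tardbp and Lgi4 44.9% with Fxyd3. Chromosome 17, which carries the MHC genes, held 11 of the genes (9.65%), against 5.07% of expressed genes. Not all of these were MHC genes, Sik1 and Zfp36l2 being among them. The chromosome held 6.16% of the lowered genes neither regained nor lower again in LATS-S9, and 4.68% of those lower again. Pairs within 100 kb of each other included Psmb9 and Tap2, 15763 bases apart, H2-Q2 and H2-Q5, 47364 bases apart, and Rnf224 and Cysrt1, 2031 bases apart on chromosome 2. Sik1 lay 52075 bases from a clone-named regained gene, itself 3637 bases from another. On chromosome 18, Iigp1 lay 73011 bases from a regained gene with a clone name, itself 45560 bases from a predicted one.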

How the data were processed

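RNA-seq was run on 9 libraries of sorted EYFP+ mammary cells, 3 per group. Per the labels and the study's methods, reads were checked with FastQC 0.11.7 and aligned to mm10 with STAR 2.6.0c, and the authors deposited raw counts per gene from featureCounts (Subread 1.6.2) over non-mitochondrial genes of Ensembl build 100, from uniquely aligned proper pairs. The methods name same-strand counting, whereas the kit named in the labels does not mark strand; which applied was not settled, so that values of overlapping genes are uncertain. Total counts were 44167762 to 61967651 per library, and no 2 libraries of a group agreed within sampling noise.

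CPM were computed from the column totals, and the 114 genes were chosen by the rule on them given in the report. The genes and lists were chosen with earlier results of these data known. The deposited counts were tested with edgeR 4.0.16 in R 4.3.3, by quasi-likelihood fits over all 9 libraries with 3 group means, TMM scaling and the filterByExpr filter, with Benjamini-Hochberg adjustment over 19357 genes. The script was tested on simulated data. Genes were named when they were Lats1, Lats2, Sox9, Krt8 or Krt18, when a regained gene was in one of the gene lists, or, at a CTL mean of at least 10 CPM, when they were among the 10 with the highest LATS-S9 to LATS ratio, the 5 with the highest or the 5 with the lowest return; also named were the 10 with the highest CTL mean and the 3 genes just inside and just outside the ratio of 1.5. Predicted genes were counted and not named. Other named genes were chosen after their values were seen.

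Alternatives were other scalings, filters and thresholds, DESeq2 1.42.0, glmTreat, a replicate block and leaving out each library; adjustment for GC content was chosen after seeing the data. Gene models were from GENCODE M21 and promoter windows from RefSeq GRCm38.p6.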

Additional observations from a re-analysis of the deposited data

How the results depend on the processing

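The number of regained genes depended on the scaling and on the threshold: it was 172 with TMM scaling, 182 with DESeq2 size factors, 54 at a ratio of at least 2, and 106 to 329 over the fits that left out 1 library, the highest without LATS replicate 1; the cause was not tested. The median return was 50.8% on the log2 scale, and 30.2% to 40.6% when each of the 9 libraries was left out in turn. Testing against a fold change of 2 with glmTreat reduced the genes called between LATS-S9 and CTL from 7248 to 4708 and the regained genes called lower from 45 to 28, by its own stricter construction. Without 1 library these counts were 6719 to 7780 and 35 to 47. No regained gene was called higher than CTL, except 1 without LATS-S9 replicate 3 (0 to 1 over the left-out libraries) and 1 after GC adjustment (Ggt6, edgeR log2 fold change 1.07, adjusted p = 0.0381), an alternative chosen after seeing the data.

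The log2 fold change of LATS-S9 against CTL changed sign for genes near 0. When 1 library was left out it ran from -0.541 to 0.271 for Psmb9 and from -0.158 to 0.110 for Ccbe1, and, with every negative value found without LATS-S9 replicate 1, from -0.0808 to 0.741 for Asap3, -0.0169 to 0.807 for Rnf225, -0.193 to 0.796 for Helz2 and -0.0971 to 0.756 for H2-Q5. With no filter Psmb9 was at 0.0048 and Ccbe1 at 0.0004, and after GC adjustment Psmb9 was at 0.195 and Capn5 at 0.115. Over the 30 named regained genes and 17 alternatives, 454 values kept direction and call, 28 lost and 15 gained a call, and 13 changed sign. Replicate numbers were not shown to pair the libraries, since deviations of same-numbered libraries correlated from -0.15 to 0.35 across genes; with a replicate block, 7087 genes were called and 45 regained genes were lower, 43 of them shared. Genes at the lowest levels rest on the fewest reads, so that a return of a few percent of a small CTL level is the least precise.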
